A study of Mus musculus with 16 samples.

Results

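Kidney cortex of mice lacking Vhl in tubule epithelium was set against kidney cortex of mice lacking Pbrm1 there, over all annotated genes of 1 expression array table. The comparison holds 8 of the 16 arrays of the series: 4 Vhl mutant arrays and 4 Pbrm1 mutant arrays, selected by their titles. Vhl mutants carry loxP-flanked (floxed) Vhl alleles with Ksp-Cre, and Pbrm1 mutants carry floxed Pbrm1 alleles with Ksp-Cre. Ksp-Cre is a Cre recombinase transgene under the Cdh16 (Ksp-cadherin) promoter, which is active in epithelial cells of the renal tubule, so vessels, stroma and immune cells keep both genes. Both mutant groups have a mixed C57BL/6, BALB/c and 129 background. The 4 wild-type arrays, which serve as a baseline for levels, are labelled as C57BL/6, so that any distance from wild type is also a distance between strains. The animals were 3 months old and on a normal diet. The remaining 4 arrays are double mutants and entered only the estimate of spread. The stated aim of the series was to find early transcript changes that could matter in clear cell renal cell carcinoma, a tumor in which both genes are often lost.

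Vhl encodes the substrate-binding subunit of a ubiquitin ligase. That ligase binds the alpha subunits of the hypoxia-inducible factors (HIF) once prolyl hydroxylases have modified them, and marks them for degradation while oxygen is present. Cells without Vhl keep HIF and transcribe its targets, among them glycolytic enzymes, glucose and lactate transporters and vascular growth factors. Pbrm1 encodes a bromodomain protein of PBAF, a chromatin remodeler of the SWI/SNF family. The 2 mutants therefore lack regulators of different kinds, a protein degradation factor and a chromatin factor, in the same cells.

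Values are log2 expression from robust multi-array averaging (RMA), and a difference of 1 is a 2-fold change. Array medians lay between 5.18 and 5.27. Precision is set by the 4 arrays of each group, with a median standard error of 0.11 for a Vhl minus Pbrm1 mutant difference. The array descriptions hold a number and a letter, L or R, which the labels do not explain. Vhl mutants, Pbrm1 mutants and wild-type mice each have 2 such numbers, 1 for replicates 1 and 2 and another for replicates 3 and 4. Within each of these numbers 1 array is marked L and the other R. In the double mutants replicates 1 to 3 share a number, and replicates 2 and 3 have identical descriptions. The numbers may mark animals and the letters the left and right kidney, in which case a group holds 2 animals. The labels name no separate animals, so p-values measure the scatter of these arrays alone, part of which may be technical. Vhl mutants carry the highest numbers of the series, with no overlap, and any batch that follows the numbering cannot be told apart from genotype. Adipose markers had a median of 0.31 in Vhl mutant replicate 2 and 0.51 in Pbrm1 mutant replicate 3, relative to each gene's mean over the series, against -0.19 to 0.01 in the other 6 arrays. The cortex label was checked on the 8 arrays. The proximal tubule transporter Slc34a1 lay between 12.75 and 12.98, Umod of the thick ascending limb between 11.9 and 12.1, and Slc12a3 of the distal convoluted tubule between 11.7 and 12.2.

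The targeted genes gave no check of the labels. The Vhl probe set read 6.30, 6.28, 6.29 and 6.25 in the Vhl mutants, 6.27, 6.28, 6.30 and 6.20 in the Pbrm1 mutants, and 6.55, 6.24, 6.23 and 6.34 in wild-type mice. The Pbrm1 probe set read 8.05, 8.05, 8.10 and 8.33 in the Vhl mutants, 8.17, 8.19, 8.24 and 8.15 in the Pbrm1 mutants, and 8.26, 8.21, 8.17 and 8.14 in wild-type mice. Whether either probe set lies in the deleted exons is not known here, and cells without Cre contribute RNA to both. The Y-linked transcripts Kdm5d, Eif2s3y and Uty were well above the dim range in all 8 arrays, at 6.03 to 7.71, while Xist stayed at 2.94 to 3.11, and none of these 4 transcripts was called.

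Vhl mutant and Pbrm1 mutant cortex differed in many genes. Of 22180 genes tested, 1656 (7.47%) passed an adjusted p of 0.05 (limma, Benjamini-Hochberg) and are referred to as called, 1045 of them higher in Vhl mutants (4.71%) and 611 lower (2.75%). In 1562 of the called genes the 4 arrays of each mutant did not overlap; over all genes, called or not, 7.48% were higher without overlap in Vhl mutants and 6.33% lower. At least 2-fold differences were fewer, with 94 called genes higher and 37 lower in Vhl mutants. The balance of directions shifted with median centring and little with quantile normalization. After each array was centred on its median, 788 genes were called higher and 1017 lower, so that 43.7% of calls were higher, against 63.1% with the deposited values. Quantile normalization gave 1048 higher and 650 lower, with 61.7% of calls higher. The median difference over all genes was -0.01 with the deposited values and -0.07 after centring. Arrays of the same group correlated more closely, at 0.992 to 0.995 within Vhl mutants and 0.993 to 0.994 within Pbrm1 mutants, than arrays of different groups, at 0.987 to 0.990.

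**Figure D1:**
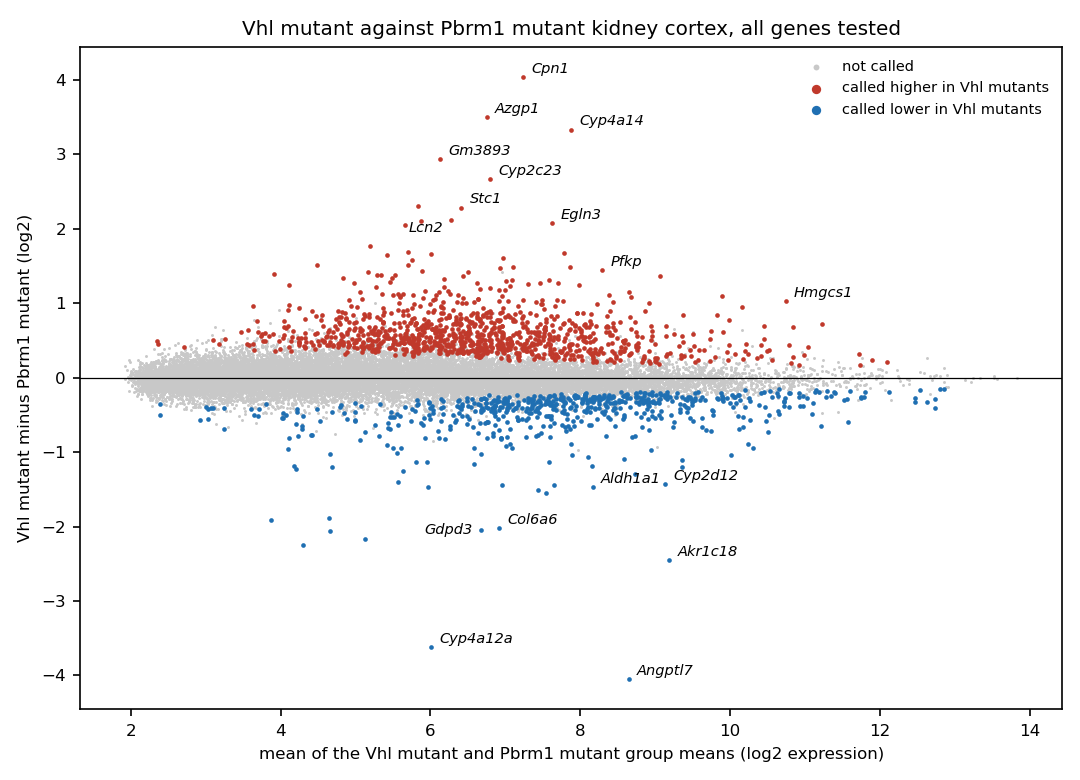
Difference between Vhl mutants and Pbrm1 mutants (log2) against the mean level of both groups (log2) for each of 22180 genes; red points were called higher in Vhl mutants, blue points lower, and grey points were not called. Cpn1 and Angptl7 mark the 2 ends at 4.03 and -4.05, and most called genes lie within 1 log2 unit of 0.

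The 12 largest differences toward Vhl mutants included secreted proteins, lipid-metabolizing enzymes and a HIF prolyl hydroxylase. Cpn1, the catalytic subunit of carboxypeptidase N, which trims kinins and anaphylatoxins, led them. It read 9.15, 9.42, 9.16 and 9.28 in the Vhl mutants, 5.66, 5.58, 4.79 and 4.86 in the Pbrm1 mutants, and 8.98, 8.84, 9.01 and 9.06 in wild-type mice. Pbrm1 mutants thus stood apart from the other 2 groups, and the Vhl minus Pbrm1 difference was 4.03 ± 0.17 (SE), 16.4-fold, with adjusted p = 1.7e-11. Azgp1, a secreted protein that promotes lipid breakdown, read 8.23, 8.32, 8.84 and 8.62 in the Vhl mutants, 4.40, 5.24, 5.28 and 5.09 in the Pbrm1 mutants, and 9.58, 9.53, 9.20 and 9.07 in wild-type mice. It was 11.3-fold higher in Vhl than in Pbrm1 mutants (adjusted p = 1.2e-10) while also lower in Vhl mutants than in wild-type mice (difference -0.84, adjusted p = 0.0093).

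Cyp2c23, an arachidonic acid epoxygenase of the kidney, gave 7.42, 7.65, 8.66 and 8.77 in the Vhl mutants, 5.89, 5.63, 5.04 and 5.30 in the Pbrm1 mutants, and 7.66, 7.82, 7.51 and 7.49 in wild-type mice (6.33-fold higher in Vhl than in Pbrm1 mutants, adjusted p = 1.7e-07). Etnppl, which breaks down phosphoethanolamine, gave 6.58, 6.72, 7.22 and 7.2 in the Vhl mutants, 4.89, 4.97, 4.79 and 4.65 in the Pbrm1 mutants, and 6.53, 6.71, 6.82 and 6.75 in wild-type mice (4.31-fold, adjusted p = 7.0e-09). In both genes, as in 2610507I01Rik (4.95-fold, adjusted p = 2.7e-09), the Pbrm1 mutant arrays lay below every array of the other 2 groups. No Vhl mutant difference from wild-type mice was called for these 3 genes or Cpn1, where adjusted p ran from 0.27 to 0.49.

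Stc1, Lcn2 and Egln3 had the other arrangement, with Vhl mutant arrays above every array of the other 2 groups. Stc1, a secreted hormone-like glycoprotein, read 7.34, 7.30, 7.76 and 7.80 in the Vhl mutants, 5.43, 5.18, 5.54 and 4.93 in the Pbrm1 mutants, and 6.11, 5.89, 5.87 and 5.87 in wild-type mice (4.86-fold higher in Vhl than in Pbrm1 mutants, adjusted p = 6.6e-10). Lcn2, an iron-siderophore carrier released by stressed tubules, read 7.79, 7.30, 7.31 and 6.95 in the Vhl mutants, 5.18, 5.43, 4.98 and 5.29 in the Pbrm1 mutants, and 5.78, 5.48, 5.36 and 5.81 in wild-type mice (4.34-fold, adjusted p = 5.9e-08). Stc1 was also lower in Pbrm1 mutants than in wild-type mice (difference -0.66, adjusted p = 0.0047), and for Lcn2 that difference was not called (-0.38, adjusted p = 0.26). Slamf7, an immune cell receptor, had group means of 6.54 in the Vhl mutants, 4.86 in the Pbrm1 mutants and 5.67 in wild-type mice (3.21-fold, adjusted p = 1.9e-08).

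Cyp4a14 and Gm3893 varied with the description number as well as the genotype. Cyp4a14, a fatty acid hydroxylase induced by the lipid sensor PPAR-alpha, read 10.02, 10.20, 8.90 and 9.05 in the Vhl mutants, 6.35, 6.21, 6.13 and 6.16 in the Pbrm1 mutants, and 7.02, 6.98, 8.63 and 8.39 in wild-type mice (10.1-fold higher in Vhl than in Pbrm1 mutants, adjusted p = 5.6e-07). Replicates 1 and 2 lay apart from replicates 3 and 4 in Vhl mutants and in wild-type mice, yet no Vhl mutant array came near a Pbrm1 mutant array. Gm3893, a predicted gene with 3 probe sets, lay at 7.29 to 7.95 in the Vhl mutants, 4.49 to 4.96 in the Pbrm1 mutants, and 7.18, 7.06, 4.52 and 4.52 in wild-type mice (7.64-fold higher in Vhl than in Pbrm1 mutants, adjusted p = 1.2e-04). Wild-type replicates 1 and 2 were thus near the Vhl mutant level and replicates 3 and 4 within the Pbrm1 mutant range. The unnamed transcript 2610035D17Rik was 3.40-fold higher in Vhl mutants, with wild-type arrays from 4.73 to 6.27. Cyp4a14 has close paralogs, and probes may not tell them apart.

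The 12 largest differences in the opposite direction were mostly genes with high levels in Pbrm1 mutants. Angptl7, a secreted angiopoietin-like protein, was the largest. It read 6.38, 6.55, 6.92 and 6.64 in the Vhl mutants, 10.77, 10.79, 10.50 and 10.61 in the Pbrm1 mutants, and 6.94, 7.12, 7.05 and 7.12 in wild-type mice. The difference was -4.05 ± 0.21 (SE), 16.5-fold lower in Vhl mutants, with adjusted p = 1.4e-10. Akr1c18, the 20-alpha-hydroxysteroid dehydrogenase that inactivates progesterone, read 8.0, 7.6, 8.17 and 8.06 in the Vhl mutants, 10.17, 10.29, 10.50 and 10.69 in the Pbrm1 mutants, and 7.72, 8.01, 8.4 and 8.39 in wild-type mice. Wild-type and Vhl mutant arrays overlapped in Akr1c18, which was 5.47-fold lower in Vhl than in Pbrm1 mutants (adjusted p = 1.5e-05).

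Col6a6, a collagen VI chain, gave 6.10, 5.92, 5.79 and 5.83 in the Vhl mutants, 7.77, 7.88, 8.03 and 8.03 in the Pbrm1 mutants, and 5.65, 5.56, 5.98 and 5.96 in wild-type mice (4.05-fold lower in Vhl than in Pbrm1 mutants, adjusted p = 1.2e-10). Gdpd3, an enzyme of lysophospholipid metabolism, was 4.12-fold lower in Vhl mutants, with means of 5.65 in the Vhl mutants, 7.69 in the Pbrm1 mutants and 5.89 in wild-type mice (adjusted p = 3.8e-09). Eddm3b had means of 4.05 in the Vhl mutants, 6.21 in the Pbrm1 mutants and 3.85 in wild-type mice (4.47-fold lower, adjusted p = 2.8e-04). Pbrm1 mutant arrays lay above every array of the other 2 groups in each of these 3 genes.

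Some of these genes were dim in Vhl mutants, so only levels are given for them. A level under 3.72, the highest lower quartile of any array, is treated as dim. Ugt2a3, a glucuronosyltransferase, averaged 3.18 in the Vhl mutants, 5.43 in the Pbrm1 mutants and 3.56 in wild-type mice (adjusted p = 1.6e-08 for Vhl against Pbrm1 mutants). Npy6r, of the neuropeptide Y receptor family, averaged 3.63 in the Vhl mutants, 5.69 in the Pbrm1 mutants and 3.98 in wild-type mice. Csta2, of the cystatin A family of protease inhibitors, averaged 2.92 in the Vhl mutants, 4.84 in the Pbrm1 mutants and 3.2 in wild-type mice. The transcript 9030025P20Rik averaged 3.70 in the Vhl mutants, 5.59 in the Pbrm1 mutants and 3.76 in wild-type mice. All 4 were dim in Vhl mutants and highest in Pbrm1 mutants, and the wild-type means of Npy6r and 9030025P20Rik lay just above the dim level.

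Cyp4a12a was the only gene of the 12 called lower in Vhl mutants than in wild-type mice. Its enzyme makes the vasoconstrictor lipid 20-HETE and is known to be induced by androgens in the mouse kidney. It read 3.34, 4.45, 4.0 and 5.0 in the Vhl mutants, 7.63, 7.84, 7.91 and 7.89 in the Pbrm1 mutants, and 6.80, 6.85, 6.56 and 5.94 in wild-type mice. The 3 groups did not overlap. Vhl mutants were 12.3-fold below Pbrm1 mutants (adjusted p = 1.6e-08) and differed from wild-type mice by -2.34 (adjusted p = 2.3e-05), and Pbrm1 mutants were 1.28 above wild-type mice (adjusted p = 0.0066). Aldh1a7, an aldehyde dehydrogenase, was 2.84-fold and Gm15217 2.92-fold lower in Vhl than in Pbrm1 mutants (adjusted p = 9.8e-05 and 2.3e-07). Of these 24 largest differences, 23 were called under each of the 23 alternative settings, and Csta2 under the 22 that kept it, since the filter on dim genes removed it.

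**Figure D2:**
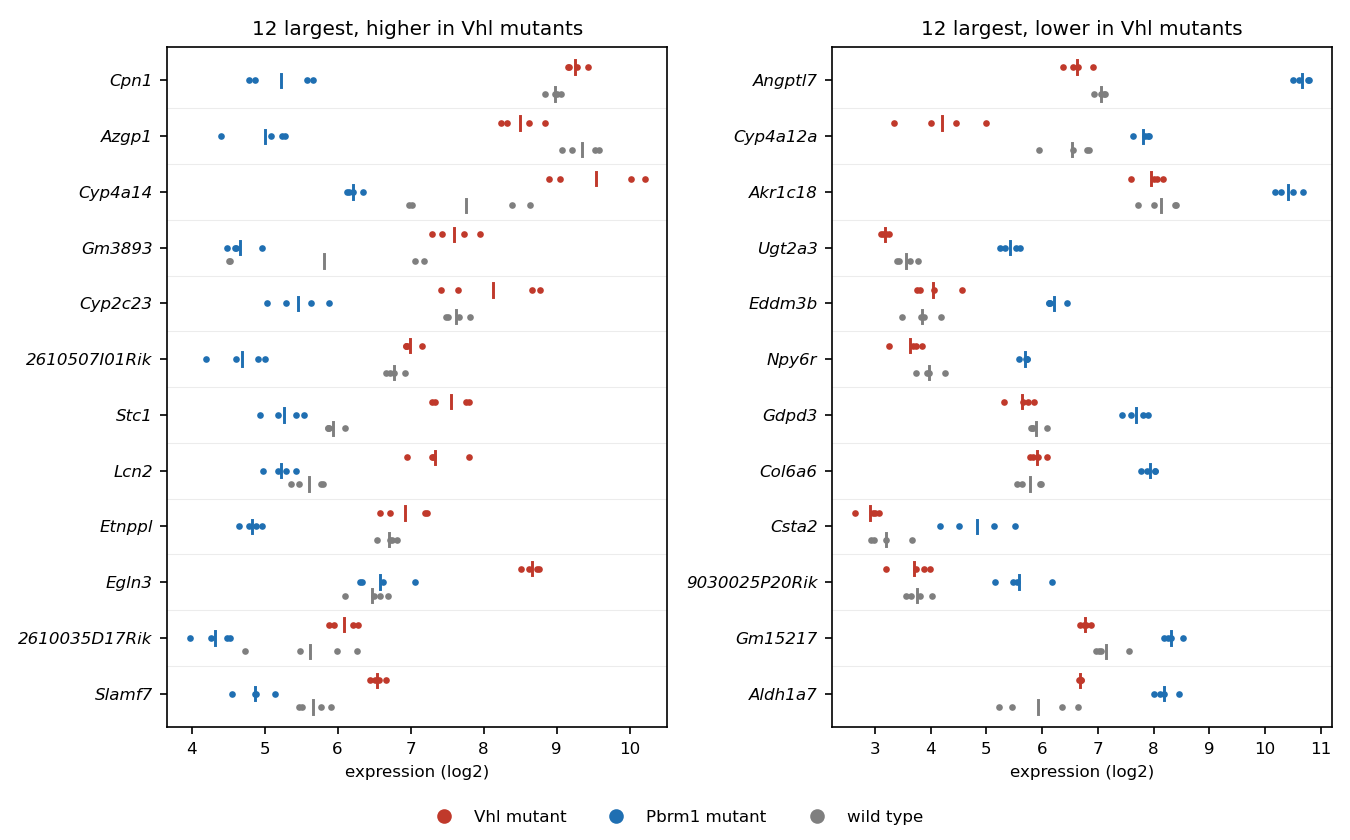
Expression (log2) in each array for the 12 genes with the largest differences in each direction; points are arrays, vertical ticks are group means, and rows within a gene run from Vhl mutant to Pbrm1 mutant to wild type. Cpn1, Azgp1 and Etnppl have low Pbrm1 mutant points, Stc1, Lcn2 and Egln3 have high Vhl mutant points, and the genes on the right have their highest points in Pbrm1 mutants.

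HIF targets were the group nearest to the function of Vhl. Of 37 tested targets, 17 were called higher in Vhl mutants and 3 lower, where 4.71% of all genes were called higher and 2.75% lower. The list median was 0.17, against -0.01 over all genes. Without any 1 of the 8 arrays, 15 to 17 were called higher and 2 or 3 lower. The wild-type comparisons quoted below share the wild-type arrays and come from the same fit, in which 3.84% of genes were called between Vhl mutants and wild type and 4.04% between Pbrm1 mutants and wild type.

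The 3 HIF targets with the largest differences were Egln3, Slc16a3 and Hk2, and their promoters are printed because HIF binds DNA at a short core. The core searched was ACGTG or GCGTG on either strand, in the 250 bases before the gene start (RefSeq, GRCm38.p6), and capitals mark each match. Egln3 lies on the minus strand (chr12:54203875-54204124), Slc16a3 on the plus strand (chr11:120948817-120949066) and Hk2 on the minus strand (chr6:82774455-82774704). Each sequence is written along its gene's strand.
Egln3: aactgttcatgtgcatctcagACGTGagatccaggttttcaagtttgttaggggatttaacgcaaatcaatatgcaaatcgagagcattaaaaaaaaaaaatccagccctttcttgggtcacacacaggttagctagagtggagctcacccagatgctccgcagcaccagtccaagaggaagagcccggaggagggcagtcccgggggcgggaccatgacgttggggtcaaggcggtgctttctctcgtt
Slc16a3: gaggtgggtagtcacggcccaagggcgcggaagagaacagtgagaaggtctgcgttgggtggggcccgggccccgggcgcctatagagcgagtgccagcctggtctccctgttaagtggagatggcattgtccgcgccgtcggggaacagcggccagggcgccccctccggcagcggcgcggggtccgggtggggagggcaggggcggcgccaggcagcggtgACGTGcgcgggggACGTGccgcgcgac
Hk2: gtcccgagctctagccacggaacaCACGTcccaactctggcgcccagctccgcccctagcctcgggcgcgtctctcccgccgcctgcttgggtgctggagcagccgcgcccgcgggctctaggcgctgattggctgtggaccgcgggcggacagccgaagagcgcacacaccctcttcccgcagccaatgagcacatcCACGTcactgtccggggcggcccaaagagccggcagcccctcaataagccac
Egln3 holds 1 match, and Slc16a3 and Hk2 hold 2 each. Such short cores are common: 47.8% of 16990 tested genes with a promoter entry held at least 1. Among HIF targets 31 of 32 did (96.9%), including all 15 called-higher members that have an entry. A match is a description of these letters and no evidence of binding.

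Egln3, the HIF prolyl hydroxylase PHD3, read 8.63, 8.52, 8.73 and 8.76 in the Vhl mutants, 6.30, 6.34, 7.06 and 6.63 in the Pbrm1 mutants, and 6.57, 6.70, 6.50 and 6.10 in wild-type mice (4.21-fold higher in Vhl than in Pbrm1 mutants, adjusted p = 7.2e-09). Slc16a3, the lactate exporter MCT4, read 6.41, 6.35, 6.58 and 6.48 in the Vhl mutants, 4.89, 4.69, 5.13 and 5.03 in the Pbrm1 mutants, and 4.50, 5.02, 4.94 and 4.96 in wild-type mice (2.86-fold, adjusted p = 4.0e-08). Hk2, the inducible hexokinase, read 6.18, 6.22, 6.24 and 6.21 in the Vhl mutants, 4.66, 4.92, 4.95 and 4.82 in the Pbrm1 mutants, and 4.89, 4.61, 4.96 and 4.73 in wild-type mice (2.59-fold, adjusted p = 8.7e-08). In these 3 genes the Pbrm1 mutant and wild-type arrays overlapped, and no Pbrm1 mutant difference from wild type was called (0.04 to 0.11, adjusted p = 0.78 to 0.91).

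Pfkfb3, which makes the activator of phosphofructokinase, read 7.13, 7.06, 7.55 and 7.31 in the Vhl mutants, 5.95, 6.03, 6.07 and 5.91 in the Pbrm1 mutants, and 6.41, 6.51, 6.33 and 6.58 in wild-type mice. It was 2.42-fold higher in Vhl than in Pbrm1 mutants (adjusted p = 7.4e-07), and its Pbrm1 mutant level was itself below wild type (difference -0.47, adjusted p = 0.034). Adm, the vasodilator adrenomedullin, was 2.18-fold higher in Vhl mutants and Pdk1, which restrains entry of pyruvate into the mitochondrial cycle, 2.10-fold (adjusted p = 1.0e-05 and 2.6e-06). Vegfa, the main vascular growth factor, had a small but tight difference, with means of 10.38 ± 0.03 in the Vhl mutants, 10.02 ± 0.03 in the Pbrm1 mutants and 10.12 ± 0.02 in wild-type mice (SD, n = 4 each; 0.36, adjusted p = 4.4e-05).

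Ero1a, Ddit4, Stc2, Bnip3, the glucose transporter Slc2a1, Plod2, Higd1a and Fam162a were also called higher in Vhl mutants, by 0.55 to 0.81. Angptl4 was 1.53-fold and the prolyl hydroxylase Egln1 1.16-fold higher (adjusted p = 0.037 for both). The Angptl4 call was lost without Vhl mutant replicate 1 or 2 or Pbrm1 mutant replicate 1, 2 or 4 (adjusted p = 0.079 to 0.12). That of Egln1 was lost without Vhl mutant replicate 2, 3 or 4 or Pbrm1 mutant replicate 1, 2 or 4 (adjusted p = 0.055 to 0.10). Members that were not called included Epo, the kidney hormone for red cell production (difference -0.07), the lipid droplet coat Plin2 (0.12) and Ndrg1 (-0.22).

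The 3 HIF targets lower in Vhl mutants were the carbonic anhydrases Car9 and Car12 and the HIF antagonist Cited2. Car9, a membrane enzyme that acidifies the surroundings of hypoxic cells, had means of 6.56 ± 0.09 in the Vhl mutants, 7.47 ± 0.07 in the Pbrm1 mutants and 6.51 ± 0.16 in wild-type mice (SD, n = 4 each). It was 1.89-fold lower in Vhl than in Pbrm1 mutants (adjusted p = 1.5e-04) and higher in Pbrm1 mutants than in wild-type mice (0.96, adjusted p = 2.6e-04), with no call between Vhl mutants and wild type (0.04, adjusted p = 0.92). Car12 was 1.18-fold lower in Vhl mutants (adjusted p = 0.013). Cited2 averaged 9.54 in the Vhl mutants, 9.97 in the Pbrm1 mutants and 9.20 in wild-type mice (adjusted p = 0.041). The Cited2 call was lost without Vhl mutant replicate 2, 3 or 4 or any 1 Pbrm1 mutant array (adjusted p = 0.056 to 0.11). These 3 differed in the direction opposite to Egln3 and Hk2.

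Among 15 regulators of the HIF pathway, 2 were called higher (Egln3 and Egln1) and 1 lower (Hif1a). The Hif1a probe set in use, the brighter of 2, read 6.96, 7.14, 7.31 and 7.39 in the Vhl mutants, 7.59, 7.6, 7.68 and 7.72 in the Pbrm1 mutants, and 7.50, 7.65, 7.6 and 7.55 in wild-type mice (1.36-fold lower in Vhl than in Pbrm1 mutants, adjusted p = 0.0019). The other Hif1a probe set ran the opposite way, with means of 5.54 ± 0.31 in the Vhl mutants, 3.66 ± 0.15 in the Pbrm1 mutants and 3.58 in wild-type mice. The mean of both reversed the sign, to 0.72 (adjusted p = 3.1e-04), so no direction is given for Hif1a as a gene. Epas1, which encodes HIF-2-alpha, and Arnt, the shared partner subunit, were not called (0.18 and 0.08).

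**Figure D3:**
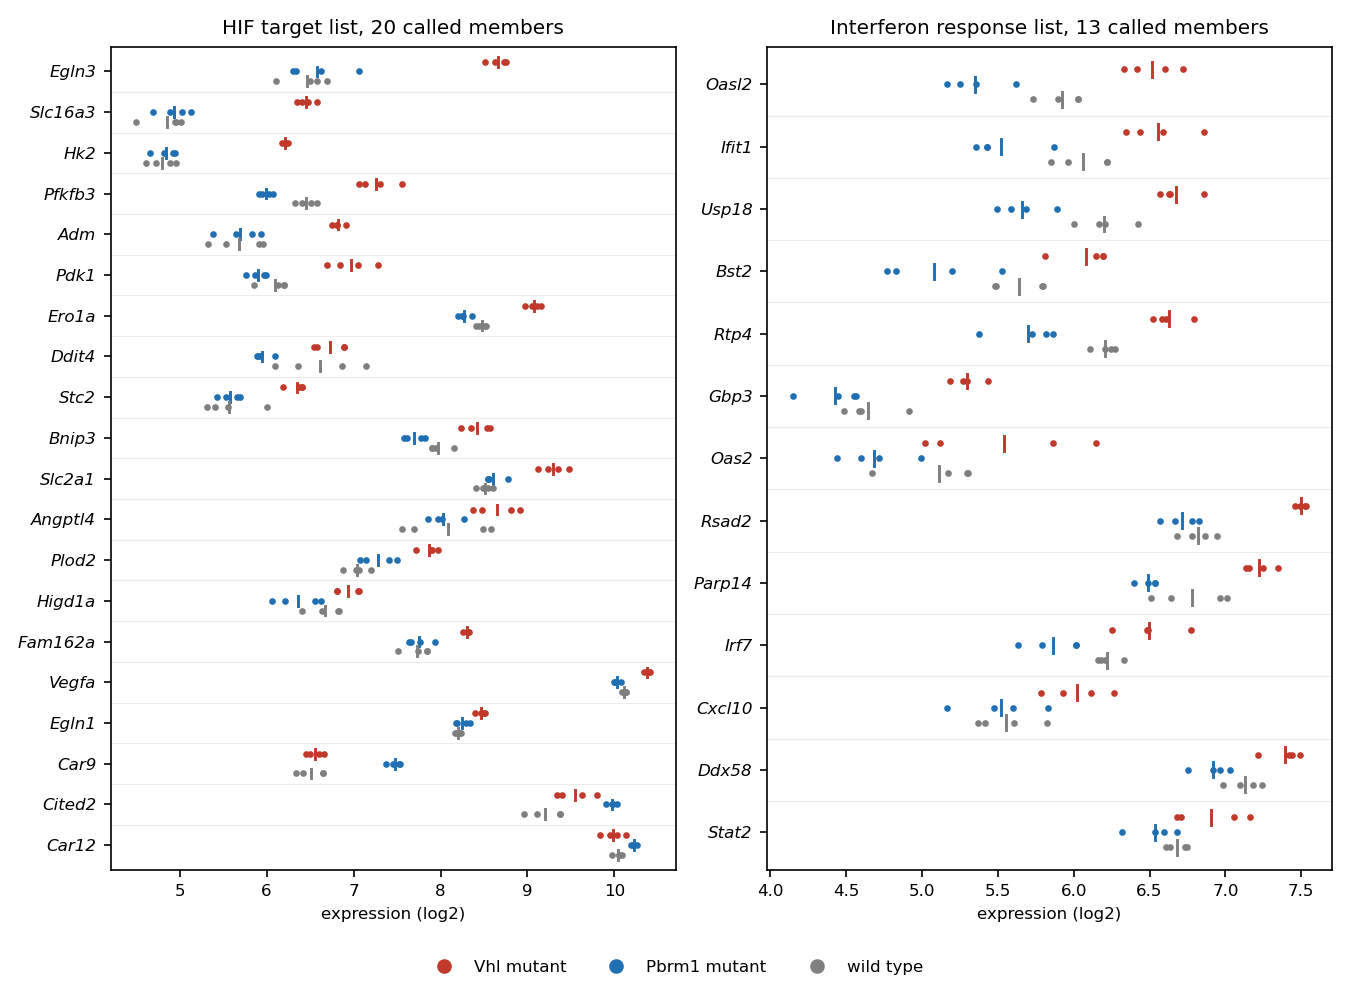
Expression (log2) in each array for the called members of the HIF target list (left, 20 genes) and of the interferon response list (right, 13 genes); points are arrays, ticks are group means, and rows within a gene run from Vhl mutant to Pbrm1 mutant to wild type. The lowest 3 genes on the left, Car9, Cited2 and Car12, are the called HIF targets with higher levels in Pbrm1 mutants.

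Several enzymes and transporters of glucose use were higher in Vhl mutants. Of 16 tested genes of the glycolysis list 10 were called higher and 0 lower, with a median of 0.57, and 9 to 11 were called higher without any 1 array. Of these, Slc16a3, Hk2, Pdk1 and Slc2a1 also stand in the HIF list, so the lists are not independent. Pfkp, the platelet-type phosphofructokinase, read 9.11, 8.88, 9.04 and 9.02 in the Vhl mutants, 7.61, 7.55, 7.54 and 7.58 in the Pbrm1 mutants, and 7.73, 7.88, 7.66 and 7.94 in wild-type mice (2.72-fold higher in Vhl than in Pbrm1 mutants, adjusted p = 1.2e-10). The liver-type Pfkl was higher by 1.25 and the muscle-type Pfkm was not called (-0.10). Pkm was higher by 0.94, Aldoc by 0.88 and Pgk1 by 0.44, whereas Gapdh (0.02), Tpi1 (0.15), Pgam1 (-0.04) and Eno2 (-0.04) were not called. Ldha, lactate dehydrogenase A, was higher by 0.28 (adjusted p = 0.023), a call lost without Vhl mutant replicate 2 or 4 or Pbrm1 mutant replicate 3 or 4 (adjusted p = 0.051 to 0.071).

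List medians were small for glucose production and mitochondrial genes. They were 0.03 for gluconeogenesis, -0.04 for the tricarboxylic acid cycle and 0.01 for complex I. In that order, 22.2%, 5% and 2.94% of members were called, against 7.47% of all genes. Of 9 gluconeogenesis genes, Pck2 (1.60-fold, adjusted p = 1.1e-04) and the glucose transporter Slc2a2 (1.21-fold, adjusted p = 0.0047) were called higher in Vhl mutants and 0 lower. With the arrays averaged per number, Slc2a2 was no longer called (adjusted p = 0.081). Of 20 genes of the tricarboxylic acid cycle, only Sucla2 was called (1.20-fold lower, adjusted p = 0.016), and that call was lost without Pbrm1 mutant replicate 3 (adjusted p = 0.065). After each array was centred on its median, 4 genes of this cycle were called lower and 0 higher. Of 34 complex I genes, only Ndufa4l2 was called. It is a HIF-induced subunit relative that lowers complex I activity, and it read 6.74, 6.43, 6.34 and 6.22 in the Vhl mutants, 5.31, 5.67, 5.47 and 5.03 in the Pbrm1 mutants, and 5.68, 5.48, 5.49 and 5.21 in wild-type mice (2.09-fold higher in Vhl than in Pbrm1 mutants, adjusted p = 4.7e-05). The other 33 complex I members lay between -0.20 and 0.22.

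Of 25 genes of fatty acid oxidation and PPAR-alpha, 5 were called higher in Vhl mutants and 0 lower, where 4.71% of all genes were called higher, with a median of 0.06, and 1 was called with arrays averaged per number. Besides Cyp4a14 and Angptl4 these were Acot2, Slc25a20 and Pdk4. Pdk4, a fasting-induced brake on glucose oxidation, read 9.62, 9.47, 7.65 and 7.66 in the Vhl mutants, 7.03, 7.33, 7.16 and 6.97 in the Pbrm1 mutants, and 7.36, 7.54, 8.34 and 8.48 in wild-type mice (2.79-fold higher in Vhl than in Pbrm1 mutants, adjusted p = 0.012). Vhl mutant replicates 1 and 2 carried most of that difference, and the call was lost without them (adjusted p = 0.28) and with arrays averaged per number (adjusted p = 0.13). Of 22 genes of lipid droplets and triglycerides 1 was called higher (G0s2) and 1 lower (Lpl). That share, 9.09%, was near the 7.47% called over all genes. Both calls were fragile. That of G0s2 was lost without Vhl mutant replicate 1 or Pbrm1 mutant replicate 4 (adjusted p = 0.058 to 0.065). The G0s2 probe set in use differed by 0.45 between Vhl and Pbrm1 mutants, and its other probe set ran the opposite way (-0.20). The Lpl call was lost without Vhl mutant replicate 3 or 4 or Pbrm1 mutant replicate 3 or 4 (adjusted p = 0.081 to 0.10). Neither call held once probe sets were averaged within each gene.

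In cholesterol synthesis, 2 of 18 genes were called higher in Vhl mutants and 1 lower, with a median of 0.01. Hmgcs1, which makes the HMG-CoA used for sterols, read 11.12, 11.23, 11.31 and 11.35 in the Vhl mutants, 10.20, 10.25, 10.24 and 10.22 in the Pbrm1 mutants, and 11.25, 11.25, 11.31 and 11.27 in wild-type mice (2.04-fold higher in Vhl than in Pbrm1 mutants, adjusted p = 1.6e-08). Sc5d, a late sterol desaturase, was 1.77-fold higher (adjusted p = 2.4e-06), with means of 8.10 in the Vhl mutants, 7.28 in the Pbrm1 mutants and 8.16 in wild-type mice. In both, the low group was the Pbrm1 mutants, while other enzymes of the pathway such as Sqle (0.14), Cyp51 (-0.11) and Dhcr7 (-0.19) were not called. Hsd17b7 was 1.21-fold lower in Vhl mutants (adjusted p = 0.044), a call lost without Vhl mutant replicate 2, 3 or 4 or Pbrm1 mutant replicate 1, 2 or 4 (adjusted p = 0.066 to 0.12).

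Enzymes of steroids, retinoids and foreign compounds split by gene. Of 44 cytochrome P450 genes, 4 were called higher in Vhl mutants (Cyp4a14, Cyp2c23, Cyp2s1 and Cyp1b1) and 9 lower, with a median of -0.08. Without Vhl mutant replicates 1 and 2 that median was 0.04. Cyp2d12 read 7.92, 8.02, 8.67 and 9.07 in the Vhl mutants, 9.62, 9.82, 9.98 and 9.96 in the Pbrm1 mutants, and 8.61, 8.67, 8.80 and 8.58 in wild-type mice (2.69-fold lower in Vhl than in Pbrm1 mutants, adjusted p = 1.6e-05). Of 30 aldo-keto reductases and aldehyde dehydrogenases, 2 were called higher (Aldh1a2 and Aldh18a1) and 4 lower. The Aldh18a1 call was lost without Vhl mutant replicate 1, 2 or 4 or Pbrm1 mutant replicate 1, 2 or 4 (adjusted p = 0.069 to 0.15). Aldh1a1, which oxidizes retinal to retinoic acid, read 7.25, 7.46, 7.53 and 7.50 in the Vhl mutants, 9.11, 9.06, 8.74 and 8.69 in the Pbrm1 mutants, and 6.70, 6.99, 6.56 and 6.92 in wild-type mice (2.76-fold lower in Vhl than in Pbrm1 mutants, adjusted p = 3.1e-06). Both mutants exceeded wild-type mice in Aldh1a1, Vhl mutants by 0.64 (adjusted p = 0.025) and Pbrm1 mutants by 2.11 (adjusted p = 4.9e-08). Cyp4a, Cyp2d and Akr1c families hold near-identical copies, so probes may mix members.

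Genes known to be higher in male than in female mouse kidney leaned lower in Vhl mutants. Of 13 such genes 8 were called lower and 0 higher, with a median of -0.27. Without any 1 array, 7 or 8 were called lower. Besides Cyp4a12a these were Cyp2j13, Slc22a30, Slco1a1, Cyp4b1, Cyp2e1, Slc7a13 and Kap. Slc22a30, Cyp2e1, Slc7a13 and Kap are also called members of the proximal tubule list. Cyp4a12a, Cyp2j13, Cyp4b1 and Cyp2e1 are also called members of the cytochrome P450 list. Cyp2j13 read 9.90, 10.26, 10.10 and 10.28 in the Vhl mutants, 10.81, 10.86, 10.84 and 10.97 in the Pbrm1 mutants, and 10.87, 10.83, 10.66 and 10.59 in wild-type mice (1.66-fold lower in Vhl than in Pbrm1 mutants, adjusted p = 5.6e-06). Kap, an abundant androgen-regulated protein of the proximal tubule, was 1.12-fold lower, and its call was lost without Vhl mutant replicate 1 or 2 or Pbrm1 mutant replicate 1, 3 or 4 (adjusted p = 0.050 to 0.075). Of 5 genes known to be higher in females, Cyp4a14 and Gsta4 were called higher, Akr1c18 and Cyp2d12 lower, and Slc7a12 was not called (0.22). The Y-linked transcripts and Xist gave no call, as described above.

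Genes known to differ between inbred mouse strains also moved. Of 14 tested, 2 were called higher in Vhl mutants (Gm4951 and Ddx60) and 4 lower (Gbp2b, Wdfy1, H2-Q10 and Nnt). In all 42.9% were called, against 7.47% of all genes, and 7 of the 14 were dim in a mutant group. The Ddx60 call was lost without Vhl mutant replicate 2 or 3 or Pbrm1 mutant replicate 1 or 4 (adjusted p = 0.051 to 0.078), and that of H2-Q10 without Vhl mutant replicate 1 or 3 or Pbrm1 mutant replicate 4 (adjusted p = 0.062 to 0.093). Wdfy1 read 6.68, 6.74, 6.50 and 6.54 in the Vhl mutants, 7.55, 7.67, 7.52 and 7.49 in the Pbrm1 mutants, and 6.66, 6.70, 6.45 and 6.65 in wild-type mice (1.92-fold lower in Vhl than in Pbrm1 mutants, adjusted p = 7.7e-08). Gbp2b, an interferon-induced GTPase, averaged 3.59 in the Vhl mutants, 4.82 in the Pbrm1 mutants and 3.39 in wild-type mice. It was thus dim in Vhl mutants and in wild-type mice. Nnt, a mitochondrial NADPH-generating enzyme that is mutated in some C57BL/6 lines, averaged 8.68 in the Vhl mutants, 9.10 in the Pbrm1 mutants and 8.78 in wild-type mice (adjusted p = 1.3e-04). Gm4951 was 2.15-fold higher in Vhl mutants (adjusted p = 2.4e-06). The mutant groups share a strain label, but how much of each strain an animal carries is not given, and its part in the calls was not tested.

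Genes of tubular injury were higher in Vhl mutants. Of 21 tested, 11 were called higher and 0 lower, with a median of 0.40 and 11 or 12 called without any 1 array. All 21 differences were above 0. After Lcn2 the largest was Krt18, a keratin of simple epithelia, which read 7.24, 7.40, 6.97 and 6.85 in the Vhl mutants, 5.78, 5.70, 5.93 and 5.62 in the Pbrm1 mutants, and 5.80, 6.17, 6.25 and 6.53 in wild-type mice (2.56-fold higher in Vhl than in Pbrm1 mutants, adjusted p = 2.6e-06). Vcam1, an adhesion molecule for leukocytes, was 2.27-fold higher (adjusted p = 4.9e-06). Krt19, Anxa2, Anxa3, Prom1, Cd44, Vim, Cd24a and Cdkn1a were also called. Havcr1, the injury marker KIM-1, was not called (0.32, adjusted p = 0.80) and had the widest spread, with means of 6.28 ± 0.59 in the Vhl mutants, 5.96 ± 1.43 in the Pbrm1 mutants and 4.34 ± 0.45 in wild-type mice (SD, n = 4 each).

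Acute phase genes, which are driven by STAT3 signalling from interleukin-6 type cytokines, gave 9 called higher and 1 lower (Cfb) of 23, with a median of 0.36. A2m, a broad protease inhibitor, read 5.72, 5.44, 6.43 and 6.32 in the Vhl mutants, 4.73, 4.31, 4.82 and 4.54 in the Pbrm1 mutants, and 4.68, 4.31, 4.63 and 4.78 in wild-type mice (2.60-fold higher in Vhl than in Pbrm1 mutants, adjusted p = 3.5e-04). The oncostatin M receptor Osmr was 2.47-fold and Serpina10 2.07-fold higher (adjusted p = 4.7e-08 and 7.3e-04), and Stat3 itself was higher by 0.36. Of 19 complement genes 7 were called higher and 1 lower, with a median of 0.24. Among these calls C1qa, C1qb and C1qc also stand in the macrophage list, and Cfb in the acute phase list. C7, of the membrane attack complex, was 3.03-fold higher, with means of 7.77 in the Vhl mutants, 6.17 in the Pbrm1 mutants and 6.93 in wild-type mice (adjusted p = 1.2e-06). The inhibitor Serping1 was 2.11-fold higher and C1qb 2.41-fold higher, whereas Cfb, of the alternative pathway, was 1.36-fold lower (adjusted p = 2.0e-04).

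Interferon-stimulated genes were higher in Vhl mutants as a group. Of 23 tested, 13 were called higher and 0 lower, with a median of 0.47, and all 23 differences were above 0. Without any 1 array, 10 to 13 were called. Oasl2, of the antiviral oligoadenylate synthetase family, read 6.72, 6.6, 6.42 and 6.33 in the Vhl mutants, 5.36, 5.25, 5.62 and 5.16 in the Pbrm1 mutants, and 5.90, 6.03, 6.03 and 5.73 in wild-type mice (2.25-fold higher in Vhl than in Pbrm1 mutants, adjusted p = 2.2e-06). Ifit1 was 2.05-fold and Usp18 2.01-fold higher (adjusted p = 2.7e-05 and 5.4e-06). In these 3 genes the wild-type mean stood between the mutants: Vhl mutants were above wild type by 0.47 to 0.60 (adjusted p = 0.0072 to 0.042) and Pbrm1 mutants differed by -0.54 to -0.57 (adjusted p = 0.0081 to 0.024). Rsad2, Rtp4, Parp14, Gbp3, Bst2, Irf7 and Ddx58 were also called higher.

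Antigen presentation had 10 of 20 genes called higher in Vhl mutants and 0 lower, with a median of 0.30, but 7 or 8 were called without any 1 array. The immunoproteasome subunit Psmb8 was 1.66-fold, the class II chain H2-Aa 1.60-fold and H2-Eb1 1.45-fold higher (adjusted p = 8.0e-05, 5.0e-05 and 0.0041), and Tap1 and H2-K1 were higher by 0.53 and 0.50. Among chemokines and their receptors 9 of 26 were called higher and 0 lower, with a median of 0.21, but only 4 to 8 were called without any 1 array, with 4 when Pbrm1 mutant replicate 1 was left out and 5 when Vhl mutant replicate 1, 2 or 3 or Pbrm1 mutant replicate 3 or 4 was. Ccl5, which attracts T cells, was 1.91-fold and Cxcl12, a stromal chemokine, 1.54-fold higher (adjusted p = 7.2e-04 and 0.0033). Cxcr6, the receptor for Cxcl16, averaged 4.07 in the Vhl mutants, 3.31 in the Pbrm1 mutants and 3.31 in wild-type mice and was dim in the last 2 of these.

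Most macrophage markers were higher in Vhl than in Pbrm1 mutants. Of 23 markers 21 were called higher and 0 lower, with a median of 0.69. Without any 1 array 15 to 18 were called, and 14 when Vhl mutant replicate 2 and Pbrm1 mutant replicate 3 were both left out. Lyz2, lysozyme of myeloid cells, read 8.39, 7.85, 7.77 and 7.39 in the Vhl mutants, 6.14, 6.09, 6.62 and 6.58 in the Pbrm1 mutants, and 6.71, 6.78, 5.92 and 6.45 in wild-type mice (2.81-fold higher in Vhl than in Pbrm1 mutants, adjusted p = 4.8e-05). Ctss, a lysosomal protease of antigen-presenting cells, read 7.64, 7.67, 7.68 and 7.71 in the Vhl mutants, 6.29, 6.53, 6.39 and 6.55 in the Pbrm1 mutants, and 6.76, 6.95, 6.47 and 6.64 in wild-type mice (2.35-fold, adjusted p = 7.7e-08). Mpeg1, Fcer1g, Cd68, Cd53, Ptprc, Mrc1, Laptm5 and C1qa were higher by 0.69 to 1.10. In bulk cortex, more cells of a type cannot be told apart from more RNA per cell.

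Other leukocytes moved less. Of 20 lymphocyte markers 2 were called higher and 0 lower, with a median of 0.24: Ighm, an immunoglobulin heavy chain (1.61-fold, adjusted p = 0.014), and Cd3e of T cells (1.4-fold, adjusted p = 0.026). The called share, 10%, was near the 7.47% of all genes, and 5 of the 20 markers were dim in a mutant group. Differences were above 0 in 19 of the 20, and 9 had an unadjusted limma p under 0.05. The Ighm call was lost without Vhl mutant replicate 3 (adjusted p = 0.053), that of Cd3e without Vhl mutant replicate 2 or Pbrm1 mutant replicate 1 or 4 (adjusted p = 0.069 to 0.098), and the 7 probe sets of Ighm differed by -0.13 to 1.03. None of 14 neutrophil markers was called by limma, 0 had an unadjusted p under 0.05, and their median was 0.02. Over the array medians of the macrophage list, Vhl mutants lay at 0.15 to 0.48, Pbrm1 mutants at -0.47 to -0.33 and wild-type mice at -0.47 to -0.23, each gene taken relative to its mean over the series. The macrophage markers thus moved with the chemokine, complement, antigen presentation and interferon genes, and their part in those results was not tested. The lists share called genes, so they are not independent. C1qa, C1qb and C1qc stand in the macrophage and complement lists, Cx3cr1 in the macrophage and chemokine lists, and Cxcl10 in the chemokine and interferon lists.

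Many endothelial and fibroblast markers were also higher in Vhl than in Pbrm1 mutants. The endothelial median was 0.32 for Vhl mutants against wild type and -0.15 for Pbrm1 mutants against wild type, and the fibroblast medians were 0.44 and -0.25. Of 22 endothelial markers 19 were called higher in Vhl mutants and 0 lower, with a median of 0.50. Cd34 read 8.11, 7.82, 8.04 and 7.92 in the Vhl mutants, 6.96, 7.02, 6.98 and 6.98 in the Pbrm1 mutants, and 7.21, 7.14, 7.19 and 7.39 in wild-type mice (1.98-fold higher in Vhl than in Pbrm1 mutants, adjusted p = 1.6e-07). The junction protein Cdh5 was 1.61-fold and Adgrl4 1.60-fold higher (adjusted p = 4.7e-05 and 1.4e-06), and Pecam1, Kdr, Eng, Emcn, Plat, Ptprb and Flt1 were higher by 0.50 to 0.67. Without any 1 array 15 to 19 were called, and 11 with the arrays averaged per number.

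Of 18 fibroblast and pericyte markers 13 were called higher and 0 lower, with a median of 0.71. Among these calls Col3a1, Col1a1, Dcn, Col1a2, Fbln5 and Lum also stand in the matrix list below, so the lists are not independent. Col3a1 was 2.77-fold and Col1a1 2.30-fold higher (adjusted p = 8.8e-05 and 0.0018), and the pericyte markers Rgs5, Notch3 and Pdgfrb were higher by 1.0, 0.85 and 0.75. Dpt read 6.82, 6.39, 6.23 and 5.51 in the Vhl mutants, 4.27, 3.96, 6.11 and 4.03 in the Pbrm1 mutants, and 4.70, 5.66, 4.95 and 5.34 in wild-type mice (3.13-fold, adjusted p = 0.010). The high Pbrm1 mutant value came from replicate 3, the array with raised adipose markers, and the groups overlapped because of it. Of 10 smooth muscle and renin cell markers 3 were called higher (Myl9, Des and Mylk), the last of them not without Vhl mutant replicate 1 (adjusted p = 0.054).

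Extracellular matrix genes formed the longest run of calls, with 25 of 37 higher in Vhl mutants, 2 lower and a median of 0.65. Between 24 and 27 were called higher without any 1 array. Fn1, fibronectin, read 8.82, 8.70, 8.48 and 8.45 in the Vhl mutants, 6.91, 6.75, 7.27 and 6.86 in the Pbrm1 mutants, and 7.62, 7.79, 7.89 and 7.96 in wild-type mice. The 3 groups did not overlap, and Fn1 was 3.18-fold higher in Vhl than in Pbrm1 mutants (adjusted p = 1.1e-08). Relative to wild-type mice it was higher in Vhl mutants by 0.80 (adjusted p = 3.1e-04) and lower in Pbrm1 mutants (difference -0.87, adjusted p = 1.0e-04). Col12a1 was 2.97-fold higher (adjusted p = 2.0e-06), and Tgfbi, Mmp14, Dcn, Mgp, Lox, Sparc and Bgn were higher by 0.71 to 1.27. Against this run, Col6a6 (above) and Col5a2 (-0.55, adjusted p = 0.0081) were lower in Vhl than in Pbrm1 mutants.

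**Figure D4:**
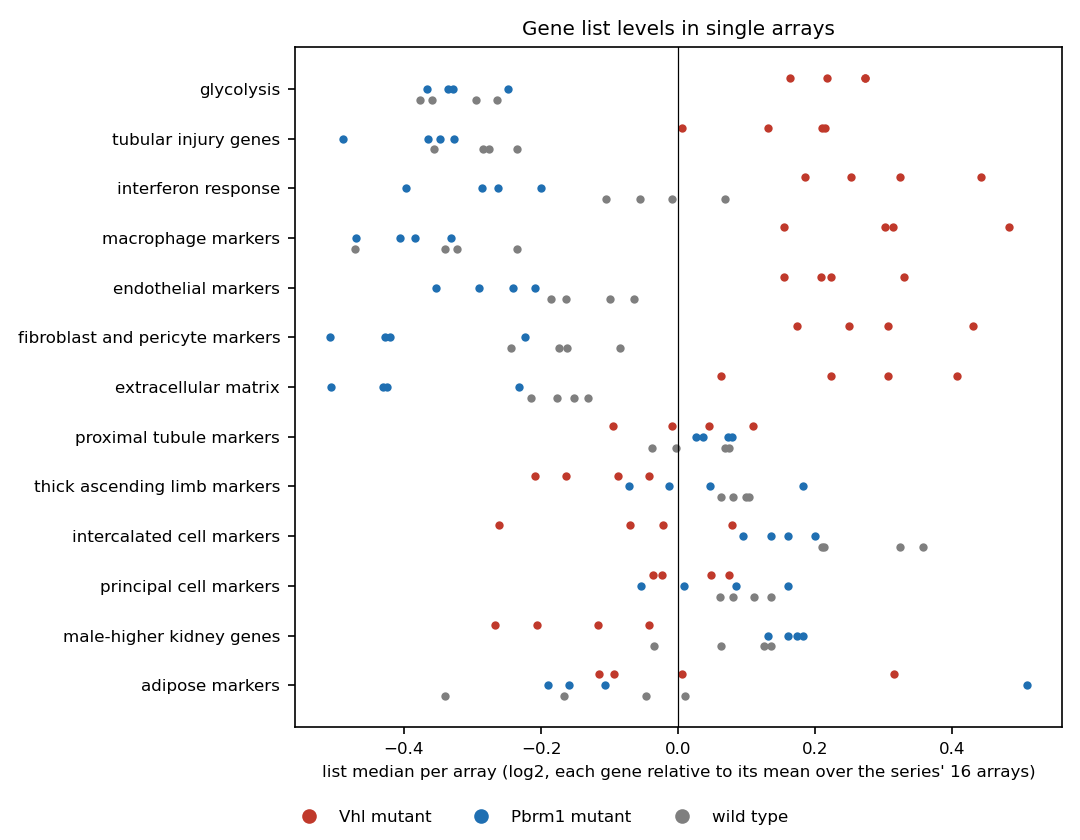
Median of each gene list in each array (log2, each gene relative to its mean over the 16 arrays of the series); rows within a list run from Vhl mutant to Pbrm1 mutant to wild type. Vhl mutant and Pbrm1 mutant arrays do not overlap in the glycolysis, injury, interferon, macrophage, endothelial, fibroblast, matrix, intercalated cell and male-higher lists, while they do in the proximal tubule, thick ascending limb, principal cell and adipose lists.

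Tubule segment markers had calls in both directions. Of 24 intercalated cell markers 9 were called lower in Vhl mutants and 2 higher (Adgrf5 and Slc8b1), with a median of -0.24. The Slc8b1 call was lost without Vhl mutant replicate 1, 2 or 3 or Pbrm1 mutant replicate 2 or 4 (adjusted p = 0.077 to 0.13). Without any 1 array 7 to 10 were called lower, and 5 with the arrays averaged per number. Slc26a4 (pendrin), the bicarbonate exporter of one cell subtype, read 7.33, 7.72, 7.38 and 7.63 in the Vhl mutants, 8.45, 8.32, 8.04 and 8.01 in the Pbrm1 mutants, and 8.36, 8.43, 8.36 and 8.34 in wild-type mice (1.61-fold lower in Vhl than in Pbrm1 mutants, adjusted p = 1.4e-04). The carbonic anhydrase Car15 was 1.73-fold lower (adjusted p = 9.5e-06), and Slc4a9 and the transcription factor Foxi1, which specifies these cells, were 1.56-fold and 1.5-fold lower. The ammonia channel Rhbg read 7.96, 8.07, 7.08 and 7.26 in the Vhl mutants, against 8.13 to 8.34 in the Pbrm1 mutants and 8.39 to 8.70 in wild-type mice (1.57-fold lower in Vhl than in Pbrm1 mutants, adjusted p = 0.013). Vhl mutant replicates 3 and 4 were the low ones, and the Rhbg call was lost without them (adjusted p = 0.25) and with arrays averaged per number (adjusted p = 0.13).

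Of 18 thick ascending limb markers 4 were called lower in Vhl mutants and 1 higher (Cldn3), with a median of -0.13. The Cldn3 call was lost without Vhl mutant replicate 1, 2 or 3 or Pbrm1 mutant replicate 1, 2 or 3 (adjusted p = 0.052 to 0.11). Cldn16, a tight junction protein of magnesium reabsorption, was 1.85-fold lower and Bsnd, the chloride channel subunit barttin, 1.47-fold lower (adjusted p = 4.4e-04 and 2.0e-04), with Bsnd means of 7.34 in the Vhl mutants, 7.89 in the Pbrm1 mutants and 8.0 in wild-type mice. The abundant Umod (0.12) and Slc12a1 (-0.08) were not called. Of 17 principal cell markers 3 were called lower and 0 higher: Kcne1 (1.92-fold), Hsd11b2 (1.42-fold) and the water channel Aqp4 (1.55-fold), the last not without Vhl mutant replicate 1, 2 or 4 or Pbrm1 mutant replicate 1 or 2 (adjusted p = 0.075 to 0.15). Of 20 distal convoluted tubule markers, the calcium channel Trpv5 (1.52-fold) and Slc12a3 (1.18-fold) were called higher and the potassium channel Kcnj10 lower (1.64-fold, adjusted p = 1.2e-05), where the Slc12a3 call was lost with arrays averaged per number (adjusted p = 0.15).

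Proximal tubule markers had a median of 0.01 over 33 genes, with 8 called lower in Vhl mutants and 1 higher. The lower calls were small for the abundant members, with Slc34a1 at -0.15, Cyp2e1 at -0.27 and Slc22a8 at -0.26. Slc22a30 was 1.65-fold lower (adjusted p = 0.010). Without Pbrm1 mutant replicate 3 or 4 only 5 were called lower, and Slc34a1 was lost without Pbrm1 mutant replicate 3 (adjusted p = 0.051). With the arrays averaged per number 2 were called lower and 0 higher. Leaving out both Pbrm1 mutant replicates 3 and 4 gave 2 lower and 1 higher. The endocytic receptors Lrp2 (-0.05) and Cubn (0.13) were not called. Cdh16, whose promoter drives the Cre, was 1.12-fold lower in Vhl mutants (adjusted p = 0.038), a call lost without Vhl mutant replicate 3 or 4 or any 1 Pbrm1 mutant array (adjusted p = 0.053 to 0.12). Of 11 podocyte markers, Podxl was called higher (1.18-fold) and Enpep, an angiotensin-cleaving peptidase also found in proximal tubules, lower (1.5-fold, adjusted p = 1.3e-06). The Podxl call was lost without Vhl mutant replicate 1, 2 or 4 or Pbrm1 mutant replicate 2, 3 or 4 (adjusted p = 0.071 to 0.10).

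Of 27 angiogenic and vasoactive factors, 9 were called higher in Vhl mutants and 3 lower, with a median of 0.15. Besides Adm and Vegfa, the apelin receptor Aplnr was 1.82-fold higher (adjusted p = 1.8e-04), and Apln, Ednrb and Adm2 were higher by 0.70 to 0.74. The lower ones were Angptl7, the kinin-releasing protease Klk1 (-0.41) and Ace, which makes angiotensin II (-0.35). The Ace call was lost without Vhl mutant replicate 1, 2 or 4 or Pbrm1 mutant replicate 3 or 4 (adjusted p = 0.061 to 0.11). Of 31 cell cycle genes 6 were called higher and 0 lower, with a median of 0.23: Mki67 was 1.84-fold, Nusap1 1.80-fold and Rrm2 1.5-fold higher (adjusted p = 4.3e-04, 3.9e-04 and 4.5e-04). Mki67, a proliferation marker, had means of 6.40 in the Vhl mutants, 5.52 in the Pbrm1 mutants and 5.54 in wild-type mice. Of 19 p53 targets the cell cycle inhibitor Cdkn1a (1.80-fold, adjusted p = 6.8e-05), Btg2 (1.60-fold) and Trp53inp1 (1.23-fold) were called higher and 0 lower. The Trp53inp1 call was lost without Vhl mutant replicate 1 or Pbrm1 mutant replicate 2 or 4 (adjusted p = 0.054 to 0.075).

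The lists of iron and heme, NRF2, and heat shock genes had 15.4%, 12.5% and 24% of their members called, against 7.47% of all genes. Of 26 iron and heme genes, Lcn2, ceruloplasmin (Cp, 1.83-fold, adjusted p = 3.9e-06) and the iron exporter Slc40a1 (1.63-fold, adjusted p = 2.4e-05) were called higher and Alad lower. Slc40a1 read 8.11, 8.37, 8.26 and 8.39 in the Vhl mutants, 7.71, 7.54, 7.56 and 7.52 in the Pbrm1 mutants, and 8.15, 8.14, 8.47 and 8.42 in wild-type mice, so that Pbrm1 mutants were the low group. Of 24 NRF2 and glutathione genes, Gsta4 and Ephx1 were called higher (1.83-fold and 1.32-fold) and Gsr, glutathione reductase, lower (1.42-fold, adjusted p = 3.7e-05). Of 25 heat shock and immediate early genes 3 were called in each direction, and no more than 2 were called lower without any 1 array. None of 13 adipose markers was called by limma, and 2 had an unadjusted p under 0.05.

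Few SWI/SNF subunits were called between the mutants, but most differences were slightly below 0. Of 27 tested, 0 were called higher and 1 lower, Bcl7c (1.3-fold, adjusted p = 0.037), and that call was lost without Vhl mutant replicate 1, 3 or 4 or Pbrm1 mutant replicate 2, 3 or 4 (adjusted p = 0.062 to 0.11). In all 3.70% of the list was called, against 7.47% of all genes. Differences were below 0 in 23 of the 27, and the list median was -0.07, against -0.01 over all genes. Array medians of the list, each gene relative to its mean over the series, were -0.113 to -0.034 in the Vhl mutants and -0.027 to 0.046 in the Pbrm1 mutants. The genes beside each floxed locus were examined because a floxed allele carries flanking DNA of its strain of origin. Around Vhl 2.5% of the nearest tested genes were called and around Pbrm1 10%, against 7.47% of all genes. An effect of the flanking DNA was not tested. Of the 40 nearest tested genes around Vhl only Ift122 was called (1.19-fold lower), and that call was lost without Vhl mutant replicate 2, 3 or 4 or any 1 Pbrm1 mutant array (adjusted p = 0.051 to 0.15). Of the 40 around Pbrm1, Hacl1 (2.07-fold, adjusted p = 1.0e-05), Sema3g (1.41-fold, adjusted p = 0.0011) and Stab1 (1.37-fold, adjusted p = 0.0072) were called higher in Vhl mutants and Chdh lower. The Chdh call was lost without Vhl mutant replicate 1, 3 or 4 or Pbrm1 mutant replicate 1, 3 or 4 (adjusted p = 0.060 to 0.13). Hacl1, a peroxisomal lyase of branched fatty acids, read 7.85, 7.96, 8.03 and 8.21 in the Vhl mutants, 6.96, 6.86, 6.99 and 7.07 in the Pbrm1 mutants, and 7.41, 7.56, 7.80 and 7.74 in wild-type mice, with Pbrm1 mutants below every other array.

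**Figure D5:**
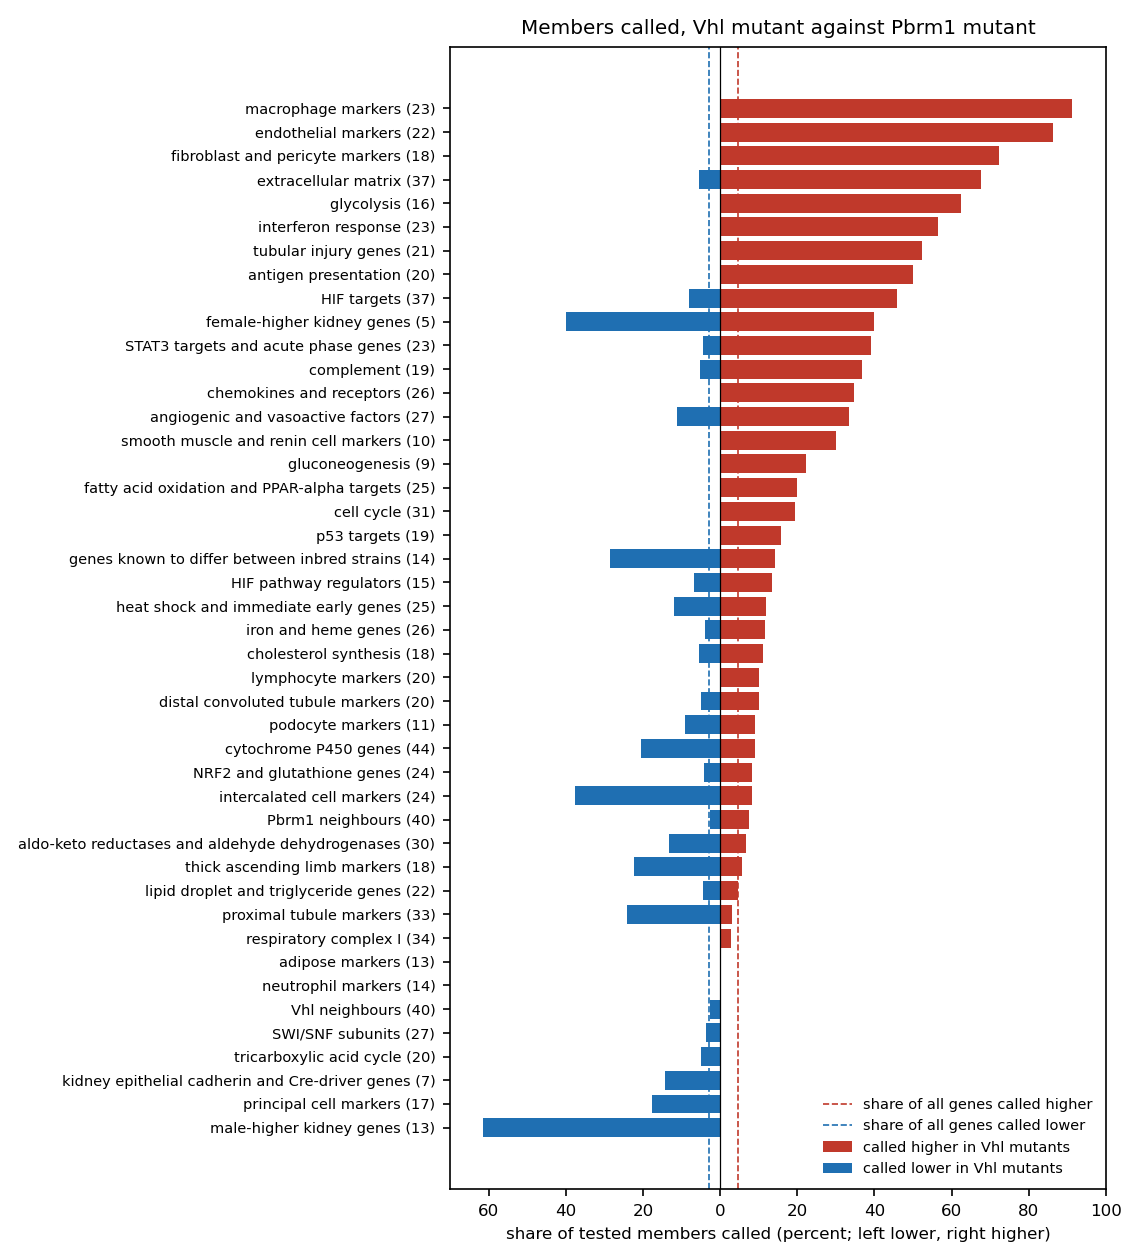
Share of the tested members of each gene list (number in brackets) called higher (right, red) or lower (left, blue) in Vhl mutants than in Pbrm1 mutants, in percent; dashed lines mark the shares over all genes, 4.71% and 2.75%. Macrophage, endothelial, fibroblast, matrix and glycolysis lists extend farthest to the right, and male-higher kidney genes, female-higher kidney genes and intercalated cell markers extend farthest to the left.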

How the data were processed

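Total RNA of mouse kidney cortex was measured on Affymetrix expression arrays, 4 per group. The authors deposited log2 expression values per probe set, which per the submitters' processing notes came from RMA (Expression Console 1.4). RMA corrects background, equalises distributions and summarises probes, so small differences in total RNA are removed. The genome build of the array annotation is not given in the sources used here. Of 41345 probe sets, 23521 had 1 gene symbol, 1814 had several and 16010 were not listed. The probe set of highest mean stood for each of 22180 genes.

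All 16 arrays entered 1 fit by genotype in limma 3.58.1 (R 4.3.3), with the description number as a random block (correlation 0.0838) and an intensity trend. A gene was called where its p, adjusted over all genes (Benjamini-Hochberg), was under 0.05, and adjusted p-values come from this fit unless a sentence names arrays left out, averaged arrays or the mean of probe sets, for which limma was refitted. On simulated data of 22180 genes for this comparison, 67.2% of 1.5-fold and 97.0% of 2-fold changes were recovered, and 6.38% of calls were false. The simulated noise was independent between arrays, so scatter shared by arrays of the same description number was not covered. Named genes were the 12 largest called differences in each direction, whose arrays did not overlap, up to 3 leading called members of each list (6 for HIF targets), the deleted genes and the sex-linked transcripts; other called members serve as examples chosen after their values were seen. The members and the 46 lists were chosen with earlier results of these data known.

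Alternatives covered the block, averaging, scaling, filters, probe set choice, weights and leaving out arrays. Promoters came from RefSeq (GRCm38.p6).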

Additional observations from a re-analysis of the deposited data

Results flagged for a closer look

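Single arrays stood far from the other 3 of their group in 11 of 246 gene and group combinations tested, where the gap to the nearest array, as a share of the group's range, exceeded Dixon's 95% critical value for 4 samples. Chance flags about 1 in 20 groups. In Vhl mutants, 2610507I01Rik was high in replicate 4 (gap share 0.952), Kcne1 was high in replicate 2 (0.871) and Mki67 was high in replicate 4 (0.882). In Pbrm1 mutants, Dpt was high in replicate 3 (0.854), Serping1 in replicate 3 (0.885), Eddm3b in replicate 2 (0.915) and Ifit1 in replicate 1 (0.857). Low Pbrm1 mutant arrays were found for C1qb in replicate 4 (0.918), Gatm in replicate 2 (0.839), Gbp2b in replicate 2 (0.833) and Npy6r in replicate 1 (0.855). Dpt and Serping1 share the high array, Pbrm1 mutant replicate 3, in which adipose markers were also raised, and the part of that array in these results was not tested.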

How the results depend on the processing

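Of the 24 largest differences, 23 were called under each of 23 alternatives and Csta2 under 22, since the dim filter removed it, while counts moved. With arrays averaged per description number, 916 genes were called, 679 higher and 237 lower in Vhl mutants, on fewer samples. Median-centred arrays gave 1017 lower. Without Pbrm1 mutant replicates 3 and 4, 982 were called, 681 higher and 301 lower. Requiring at least 1.5-fold left 562, with 435 higher and 127 lower. Leaving out 1 array gave 1329 to 1578 calls, 861 to 981 higher and 445 to 597 lower. The replicate block gave 1879, with 1165 higher and 714 lower, and the calls of the named genes other than Ift122 did not change. Vhl and Pbrm1 mutant arrays of the same replicate number correlated by -0.074 to 0.022 in their deviations from the group means. Replicate numbers were therefore not taken as pairs across genotypes. The mean of its probe sets reversed Hif1a to 0.716 against Pbrm1 mutants and 0.788 for Vhl mutants against wild type, because the probe sets run opposite ways. The list median of cytochrome P450 genes was 0.036 without Vhl mutant replicates 1 and 2, and that of sex-linked transcripts 0.0039 without Vhl mutant replicates 3 and 4; the cause was not tested. Of 117 named genes with a call, 30 lost it or reversed under some alternative. The 1 that reversed was Hif1a, which was still called. Genes dim in a group have no usable fold.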
